A study of Mus musculus with 8 samples.

Results

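Gene expression of the Notch targets Hes1, Hes5, Hes6, Hey1, Hey2, Heyl and Nrarp and of the Fringe genes Lfng, Mfng and Rfng was followed across 4 RNA pools of mouse pancreatic buds. The genes were taken by symbol, as probe sets that the platform annotation pairs with exactly 1 gene. All 10 had exactly 1 such probe set, so 10 of 19938 measured genes are described here. Notch receptors are cut when a Delta or Jagged ligand on a neighbouring cell binds them, and the freed intracellular part joins the DNA-binding factor RBPJ to switch on target genes. Many of those targets encode repressors of the Hes and Hey families. In the early pancreas, Hes1 holds progenitors back from the endocrine fate by repressing Neurog3, the factor that commits cells to that lineage. In vessels, Notch restrains tip cell behaviour and promotes arterial identity, with Hey1 and Hey2 among its targets. Nrarp feeds back on the pathway by limiting the intracellular part of the receptor, and Fringe enzymes add sugars to the receptor that change which ligands activate it.

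Fresh buds came from e12.5 embryos in a pair of groups that both carried Pdx1-tTA, a tetracycline transactivator driven by the promoter of the pancreatic factor Pdx1. The VEGF pool held buds of 3 embryos that also carried TET-VEGF, a VEGF transgene that the transactivator switches on, and the control pool held buds of 3 embryos with Pdx1-tTA alone, which the labels call littermates of the first. Explants were wild-type e12.5 buds cultured for 2 days with VEGFR2i, a VEGF receptor 2 inhibitor named only by that label, or with vehicle, 5 buds to a pool. Each pool was hybridized to 2 arrays (Affymetrix mouse gene 1.0 ST), of which the second is labelled a technical repeat, for 8 arrays in all. With 1 pool per condition no test of the transgene or of the inhibitor could be made, and every SD (n = 2 arrays) and range here covers technical error only. Values are log2 expression, and a difference between pool means carries in brackets the lowest and highest difference among its 4 array pairs.

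Repeat hybridizations differed little, with a median gap per gene of 0.057 to 0.067 and a 95th percentile of 0.21 to 0.26. A gene was called higher or lower where pool means differed by at least 1.5-fold, which is 0.585 on the log2 scale, and the arrays of the pools did not overlap. Pdx1 lay at 6.96 in the control pool, 6.38 in the VEGF pool and 8.43 in both explant pools, while Ptf1a, a factor of pancreatic progenitors and acinar cells, was dim in both bud pools (3.96 and 3.88). The explant labels and the endothelial genes went in opposite directions: Cdh5, the cadherin of endothelial junctions, read 8.65 and 8.67 on the arrays labelled VEGFR2i against a mean of 4.56 in the pool labelled vehicle. Signalling through VEGF receptor 2 is known to maintain endothelium, so the values go against the labels. Directions between the explants follow the labels as they stand, and no effect of the inhibitor is read from them. With 1 pool on each side, no explant difference can be given without those pools.

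Promoter sequences were looked up because RBPJ binds a short motif, GTGGGAA, near many Notch targets. RefSeq windows (build GRCm38.p6) from 250 bases before to 50 bases after the annotated start were found for 6 of the 10 genes, Hes5, Hes6, Hey2, Nrarp, Lfng and Rfng, as 7 windows since Hes6 has 2. Searched on both strands, GTGGGAA or its reverse complement was in 3 of these 7 windows, those of Hes5, Hey2 and Lfng, and in 6.38% of all 32851 windows. The shorter core TGGGAA was in the same 3 windows and in 25.6% of all windows. Printed below are those 3 windows and that of Nrarp, the other gene with a window that was higher between the explants, each from 250 bases before the start and with matches to GTGGGAA in capitals. The Hey2 run goes on past the start to the end of a match that crosses it.
Hes5, chr4:154960673-154960922, + strand: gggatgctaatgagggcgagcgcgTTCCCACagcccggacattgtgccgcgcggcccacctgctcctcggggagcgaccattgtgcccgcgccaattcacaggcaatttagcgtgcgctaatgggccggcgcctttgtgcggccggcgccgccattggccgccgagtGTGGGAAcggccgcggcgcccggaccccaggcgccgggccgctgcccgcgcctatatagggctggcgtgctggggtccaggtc
Hey2, chr10:30842781-30843033, - strand: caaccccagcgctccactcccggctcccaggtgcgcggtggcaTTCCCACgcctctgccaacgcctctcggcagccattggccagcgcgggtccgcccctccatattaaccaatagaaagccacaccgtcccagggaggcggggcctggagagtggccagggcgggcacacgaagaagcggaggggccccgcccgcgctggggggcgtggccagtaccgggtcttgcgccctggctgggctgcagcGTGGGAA
Lfng, chr5:140607091-140607340, + strand: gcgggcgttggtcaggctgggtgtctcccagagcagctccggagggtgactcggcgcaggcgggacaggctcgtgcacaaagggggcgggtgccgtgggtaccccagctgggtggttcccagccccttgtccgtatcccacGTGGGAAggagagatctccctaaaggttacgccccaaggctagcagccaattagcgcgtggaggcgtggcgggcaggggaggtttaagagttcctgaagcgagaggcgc
Nrarp, chr2:25180508-25180757, + strand: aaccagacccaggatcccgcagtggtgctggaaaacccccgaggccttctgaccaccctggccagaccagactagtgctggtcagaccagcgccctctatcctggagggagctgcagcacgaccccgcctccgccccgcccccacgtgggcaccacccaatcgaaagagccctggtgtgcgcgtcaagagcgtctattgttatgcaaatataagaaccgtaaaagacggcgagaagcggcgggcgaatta

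Hes5 held 2 matches on opposite strands, starting 226 and 83 bases before the start. Hey2 also held 2 on opposite strands, starting 207 and 4 bases before the start. Lfng held 1 match, starting 109 bases before the start, which overlaps a CACGTG motif (the E-box, found in 7.15% of all windows). The N-box CACNAG, a sequence that Hes repressors bind, was in 4 of the 7 windows, namely 1 of those of Hes6 and those of Nrarp, Lfng and Rfng, and in 42.5% of all windows. Such matches describe letters only and do not show binding. Of the genes with a GTGGGAA match, Hey2 was called higher between the explants, and Hes5 and Lfng were not called in either comparison of a treated pool with its own control.

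**Figure D1:**
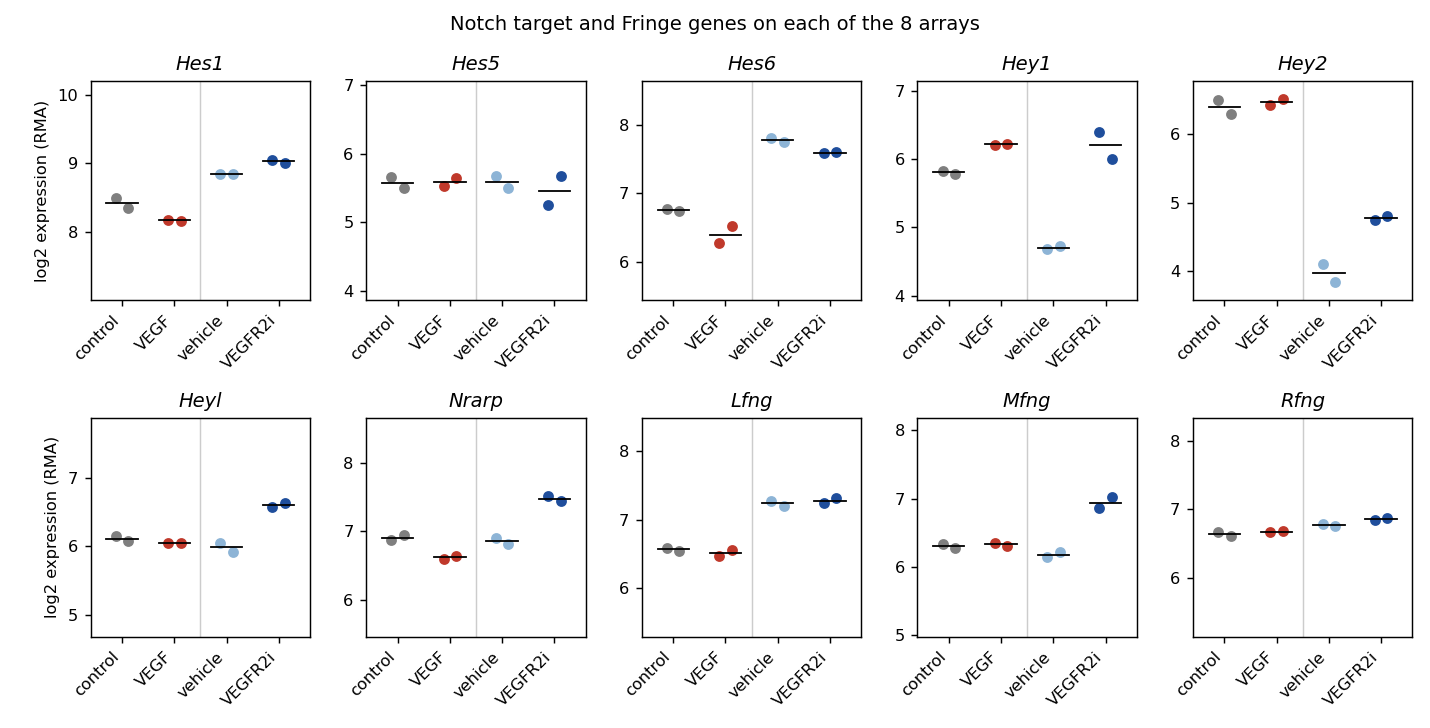
Log2 expression of the 10 genes on each array (points, 2 per pool) with the pool mean (bar), fresh buds left and explants right of the grey line; each panel spans 3.2 log2 units. Hey1, Hey2, Heyl, Nrarp and Mfng sit higher on both arrays labelled VEGFR2i than on both labelled vehicle, and Hey2 sits far lower in the explants than in the fresh buds.

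The first comparison asked how added VEGF in the Pdx1 territory related to these genes. None of the 10 was called higher or lower between the VEGF and control pools, where 0.552% of all 19938 genes were called higher and 0.933% lower. Their median difference was -0.03, against 0.00 over all genes, and 5 of 10 differences were positive, against 51.6% of all genes. The arrays of the pools did not overlap for 5 of the 10 genes, a share near the 45.3% of all genes. Hey1, a repressor that Notch induces in endothelium, had the largest increase and Hes6 the largest decrease.

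Hey1 read 6.21 and 6.22 on the VEGF arrays and 5.83 and 5.78 on the control arrays. Both VEGF arrays were thus above both control arrays, by 0.41 [0.38, 0.44] or 1.33-fold, the 283rd highest of 19938 differences. Hey2, which acts with Hey1 in arterial endothelium, read 6.42 and 6.52 against 6.49 and 6.30, and its arrays overlapped, with a difference of 0.08 [-0.07, 0.22]. Heyl, the third Hey gene, found in mural cells of vessels, read 6.06 and 6.05 against 6.16 and 6.08, a difference of -0.06 [-0.11, -0.02] with arrays that did not overlap. The 3 Hey genes therefore did not move as a group in the VEGF pool. Beside them, 6 of 17 endothelial genes were called higher and 17 of 17 were above control, with a median difference of 0.54, and their mean level was 8.20 and 8.17 on the VEGF arrays against 7.63 and 7.61 on the control arrays. The part of endothelial content in the Hey1 value was not tested, and in bulk RNA more cells of a type and more RNA per cell cannot be told apart.

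Hes1, the repressor that keeps progenitors undifferentiated, read 8.17 and 8.16 on the VEGF arrays and 8.49 and 8.34 on the control arrays. It was lower on both VEGF arrays, by a difference of -0.25 [-0.33, -0.17], short of the size rule. Hes6 read 6.27 and 6.52 against 6.77 and 6.74, a difference of -0.36 [-0.50, -0.22] with arrays that did not overlap. Hes6 differs from its relatives in that it counters Hes1 and marks cells that are differentiating, in the neural and endocrine lineages among others. Nrarp, the feedback gene, read 6.60 and 6.64 against 6.87 and 6.95, lower by a difference of -0.29 [-0.34, -0.23] in the VEGF pool. Those 3 differences were among the 842 lowest of all genes. Hes5, a target best known from neural progenitors, read 5.52 and 5.65 against 5.66 and 5.50 and overlapped fully between the pools.

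Marker lists of other cells differed between the bud pools too. Of 9 measured endocrine progenitor genes, 7 were called lower and 0 higher. Their median difference was -1.16, and Neurog3 read 4.64 and 4.27 on the VEGF arrays against 7.03 and 7.14 on the control arrays. Of 16 measured genes of progenitors and epithelium, 5 were called lower and 0 higher, and the median difference was -0.47. Genes of neural crest, glia and neurons had 3 of 6 measured called lower and a median of -0.57, with Ret at -0.84 and Stmn2 at -0.81. Erythroid genes had 4 of 7 measured called higher and a median of 0.93, with the embryonic globin Hbb-bh1 at 1.72. The part of these cells in the Hes1, Hes6 and Nrarp values was not tested.

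The Fringe genes differed little between the bud pools. Lfng, the Fringe most often linked to somite segmentation, read 6.47 and 6.55 on the VEGF arrays and 6.59 and 6.55 on the control arrays. Mfng, which Neurog3 is known to induce in endocrine progenitors, read 6.35 and 6.31 against 6.33 and 6.28. Its difference of 0.02 [-0.02, 0.07] stood beside one of -2.63 [-2.87, -2.39] for Neurog3. Rfng, the broadly expressed family member, read 6.66 and 6.68 against 6.68 and 6.61. For all 3 the arrays of the pools overlapped, and the differences ran from -0.06 to 0.03.

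**Figure D2:**
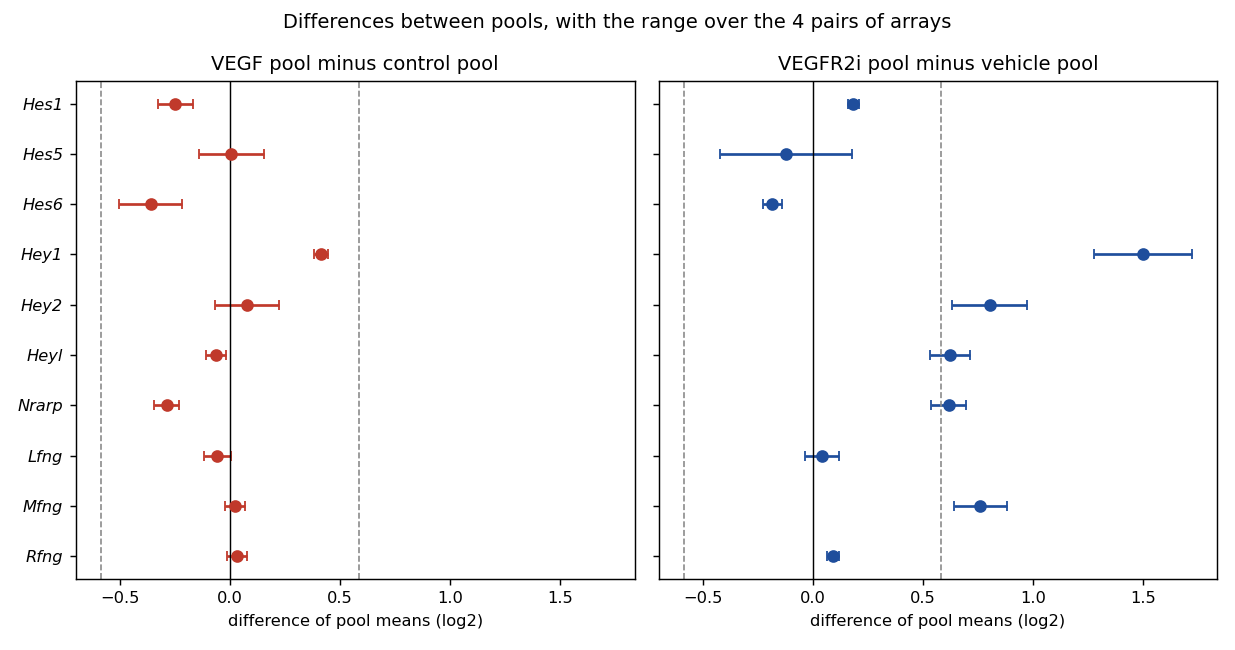
Difference of pool means for each gene (points, log2) with the lowest and highest array pair (bars), VEGF minus control left and VEGFR2i minus vehicle right; dashed lines mark 1.5-fold. No gene reaches a dashed line on the left, and Hey1, Hey2, Mfng, Heyl and Nrarp pass it on the right.

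The second comparison set the explants labelled VEGFR2i against those labelled vehicle. Hey1, Hey2, Heyl, Nrarp and Mfng were called higher in the pool labelled VEGFR2i, and none of the 10 was called lower. Over all genes 1.82% were called higher and 0.371% lower. The members' median difference was 0.40, against 0.00 over all genes, and 8 of 10 differences were positive, against 48.1% of all genes. Arrays did not overlap for 8 of the 10 genes, against 51.0% of all genes.

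All 3 Hey genes were higher. Hey1 read 6.40 and 6.01 on the arrays labelled VEGFR2i and 4.68 and 4.73 on those labelled vehicle. The pools stood far apart although the first arrays differed by 0.39 between themselves, and the difference was 1.502 [1.28, 1.72] or 2.83-fold, the 42nd highest of 19938. Hey2 read 4.74 and 4.81 against 4.11 and 3.83, higher by 0.80 [0.63, 0.97] or 1.75-fold. Its vehicle level lay at the 36.5th percentile of all genes, near the dim end, where this normalization compresses differences. Heyl read 6.58 and 6.64 against 6.05 and 5.92, higher by 0.63 [0.53, 0.72] or 1.54-fold. The order from Hey1 to Heyl is one of differences, since levels of separate probe sets cannot be compared.

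Nrarp read 7.52 and 7.44 on the arrays labelled VEGFR2i and 6.90 and 6.82 on those labelled vehicle, higher by 0.62 [0.54, 0.70] or 1.53-fold. Hes1 read 9.05 and 9.01 against 8.84 and 8.85, a difference of 0.18 [0.16, 0.21] that exceeded the array gaps but not the size rule. Hes6 read 7.58 and 7.60 against 7.81 and 7.74, and was the only one of the 10 genes below vehicle on every pair of arrays, with a difference of -0.18 [-0.23, -0.14]. Hes5 read 5.25 and 5.67 against 5.67 and 5.50 and overlapped, its VEGFR2i arrays being 0.42 apart, the widest gap of any member in any pool. Between the explants, then, the Hey genes and Nrarp were higher while no Hes gene was called.

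Among the Fringe genes only Mfng was called. Mfng read 6.86 and 7.02 on the arrays labelled VEGFR2i against 6.14 and 6.22 on those labelled vehicle, higher by 0.76 [0.64, 0.88] or 1.69-fold. Neurog3 read 10.02 and 9.93 against 9.93 and 9.92, a difference of 0.06, so the endocrine gene linked to Mfng was nearly level. Lfng read 7.24 and 7.32 against 7.28 and 7.20, with overlapping arrays. Rfng read 6.85 and 6.87 against 6.79 and 6.75, a difference of 0.09 [0.06, 0.12].

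The calls of Heyl and Nrarp lay close to the size rule. Without the second vehicle array, 3 of the 10 genes were called in place of 5, beside 1.78% of all genes called higher. Heyl fell there to a difference of 0.56 and Nrarp to 0.578. Without the first VEGFR2i array, 4 were called, with Nrarp at 0.577, beside 1.74% of all genes called higher. At a 2-fold threshold Hey1 alone was called, beside 0.617% of all genes called higher. Linear models of limma on the arrays, which measure hybridization error and not the conditions, called the same 5 genes at 1.5-fold.

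Markers of several cell types were higher in the same pool as the Hey genes. Of 17 endothelial genes 16 were called higher, with a median of 2.10, and their mean level was 7.02 in the pool labelled VEGFR2i against 4.83 in vehicle. Of 9 arterial genes 6 were higher, with a median of 0.89, led by the connexin Gja5 (3.12) and followed by Cxcr4 (2.53), Gja4 (2.49) and Epas1 (1.74). Of 9 mural cell genes, among them Rgs5 (1.26) and Pdgfrb (1.15), 7 were higher, with a median of 0.82. Of 8 leukocyte genes, led by Laptm5 (1.35) and Adgre1 (1.09), 7 were higher, with a median of 0.88. Of 7 measured erythroid genes only the embryonic globins Hbb-y (2.23) and Hba-x (1.62) were called higher, and the list median was 0.08. Endocrine progenitor genes had 0 of 9 called and a median of -0.01, and genes of progenitors and epithelium 0 of 16 and a median of -0.15. The part of these cell types in the 5 higher members was not tested. Hey1's 1.502 lay below the endothelial median of 2.10. The differences of Hey2, Mfng, Heyl and Nrarp, 0.62 to 0.80, lay within the range of the mural and leukocyte genes (0.51 to 1.35). All 5 also lay within the ranges of the endothelial (0.51 to 4.10) and arterial genes (0.07 to 3.12). Hey1 lay above the highest mural gene (1.26) and the highest leukocyte gene (1.35). Which cells expressed the members was not tested.

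**Figure D3:**
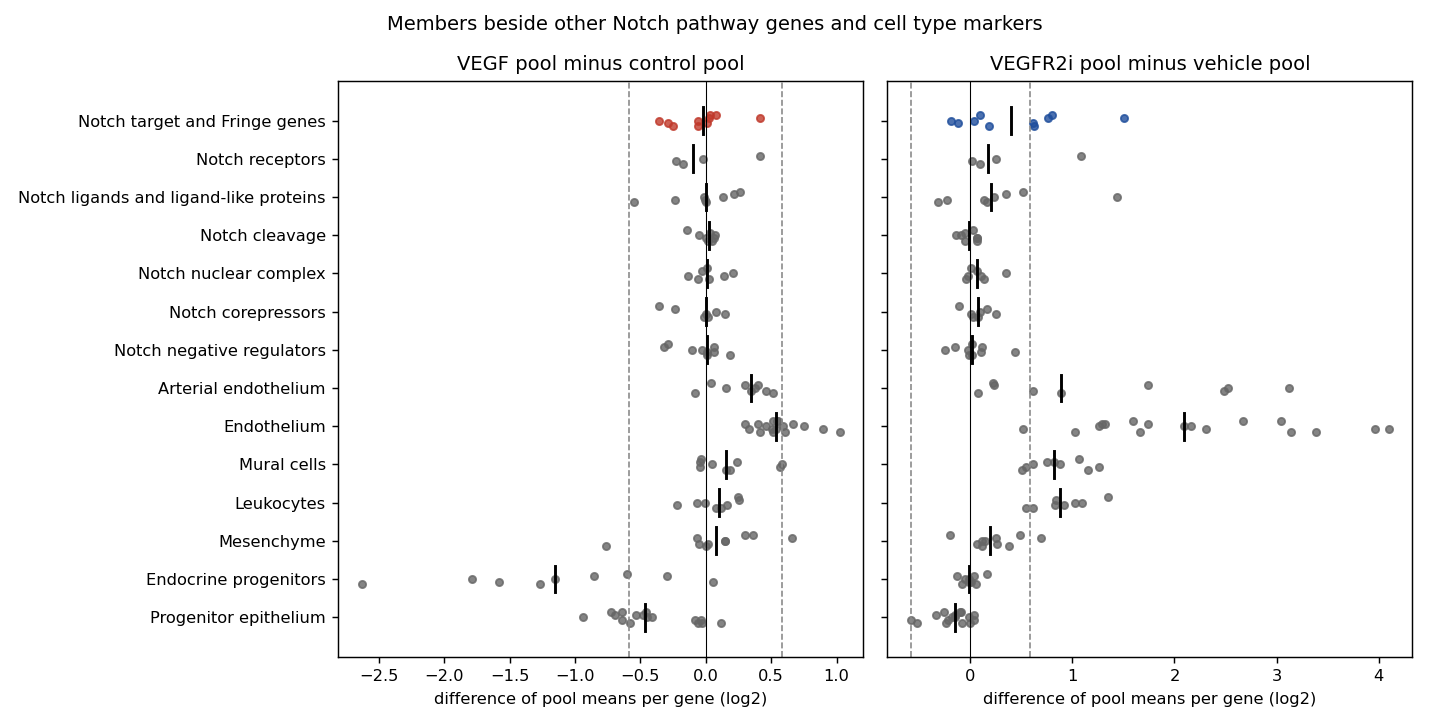
Difference of pool means per gene (points, log2) and list median (bar) for the members, for other Notch pathway genes by role and for cell type markers, VEGF minus control left and VEGFR2i minus vehicle right, on different horizontal scales; dashed lines mark 1.5-fold. In the explants 5 members lie right of the line, as do 16 of 17 endothelial genes, while Notch cleavage genes centre on 0.

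Other genes of the pathway were compared in the same way. Of 52 further pathway genes 49 were measured, with a median difference of 0.06 between the explants. Beside 1.82% of all genes called higher and 0.371% lower, 2 of these 49 were called higher and none lower. Those 2 were the ligand Dll4, at 6.52 against 5.08 (1.44), and the receptor Notch4 (1.09 [0.82, 1.35]), both known for their expression in endothelium. Among the receptors Notch1 (0.10), Notch2 (0.02) and Notch3 (0.25) were not called. Genes of receptor cleavage had 0 of 8 called, those of the nuclear complex with Rbpj 0 of 7, corepressors 0 of 7 and negative regulators 0 of 9. With so few genes per list and so low a share over all genes, 0 calls does not set a list apart. Between the VEGF and control pools 0 of the 49 were called, beside 0.552% of all genes higher and 0.933% lower. Differences of the 49 there had a median of 0.00. The ends of that range were Dll1, a ligand that Neurog3-expressing cells present to their neighbours, at -0.55, and Notch4, at 0.42.

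Across the 4 pools the members took different orders, with the caution that the bud and explant arrays may have been normalized apart. The vehicle pool lay above the control pool by a median of 0.17 over all genes, and 17.9% of genes were called higher and 4.08% lower. With each array centred on its median the calls were 2269 higher and 1279 lower in place of 3578 and 814, and with quantile normalization over all 8 arrays 1970 and 1487. Culture, genotype and age differ at once between these pools and cannot be told apart.

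Hey2 had the widest spread, with 6.47 in the VEGF pool, 6.40 in control, 4.78 in the pool labelled VEGFR2i and 3.97 in vehicle. The bud pools overlapped and every other step exceeded the array gaps. From control to vehicle its difference was -2.43 [-2.66, -2.19], a 5.37-fold lower level and the 44th lowest of all genes. Hey1 went from 5.80 in control to 4.70 in vehicle, a difference of -1.10 [-1.15, -1.05]. The pool labelled VEGFR2i, at 6.21, overlapped the VEGF buds, at 6.22, in Hey1, but lay 1.62 below control in Hey2. In Hey1 the pool labelled VEGFR2i lay above control by 0.40, which became 0.20 with centred arrays and 0.06 with quantile normalization. Under both rescalings its Hey1 arrays overlapped control and no longer the VEGF buds. In Hey2 it lay below control under each scaling, with differences of -1.82 and -1.92 after centring and quantile normalization. On the deposited scale endothelial genes had a mean difference from control of -2.79 in vehicle and -0.60 in the pool labelled VEGFR2i. The part of endothelial content in these Hey1 and Hey2 values was not tested.

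Hes6 was called higher in vehicle than in control, at 7.78 against 6.75, a difference of 1.02 [0.97, 1.08] that stayed past 1.5-fold with centred arrays (0.81) and with quantile normalization (0.72). Its order ran from vehicle over VEGFR2i and control to VEGF, with no overlap between neighbours. Endocrine progenitor genes lay 2.19 above control in vehicle and 2.18 above it in the pool labelled VEGFR2i, and -1.13 from it in the VEGF pool. The explant arrays of that endocrine list overlapped, at 7.93 and 7.95 in vehicle and 7.97 and 7.90 in VEGFR2i. Genes of progenitors and epithelium took the order of Hes6, with mean levels of 8.97 in vehicle, 8.80 in VEGFR2i, 7.46 in control and 7.04 in VEGF. Genes of neural crest, glia and neurons had means of 6.85, 6.84, 5.35 and 4.85 in these pools. Their explant arrays overlapped too, at 6.90 and 6.81 in vehicle and 6.84 on both VEGFR2i arrays. These list levels were not rescaled, and the part of such cells in the Hes6 value was not tested. Lfng, at 7.24 in vehicle and 6.57 in control, was called higher by 0.67, but its difference was 0.46 with centred arrays and 0.36 with quantile normalization, both short of the size rule. Hes1 was 0.43 higher in vehicle than in control and highest in the pool labelled VEGFR2i, with no overlap between neighbouring pools. The 0.43 became 0.21 with centred arrays and 0.13 with quantile normalization, and the order stayed as it was.

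Heyl, Nrarp and Mfng were each highest in the pool labelled VEGFR2i, above control by 0.50, 0.57 and 0.64. Those differences were 0.30, 0.37 and 0.44 with centred arrays and 0.15, 0.24 and 0.28 with quantile normalization. In vehicle they differed from control by -0.13, -0.05 and -0.12, and each of these became more negative with centred arrays, to -0.34, -0.26 and -0.34, and with quantile normalization, to -0.45, -0.37 and -0.45. On the deposited scale Hes5 spanned 0.12 over the 4 pools, and all neighbours in its order overlapped. Its span was 0.34 with centred arrays and 0.47 with quantile normalization, with both explant pools then below control. Rfng spanned 0.22, and 0.14 and 0.25 after the same rescalings, and its vehicle pool moved from above control (0.13) to below it (-0.08 and -0.20).

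**Figure D4:**
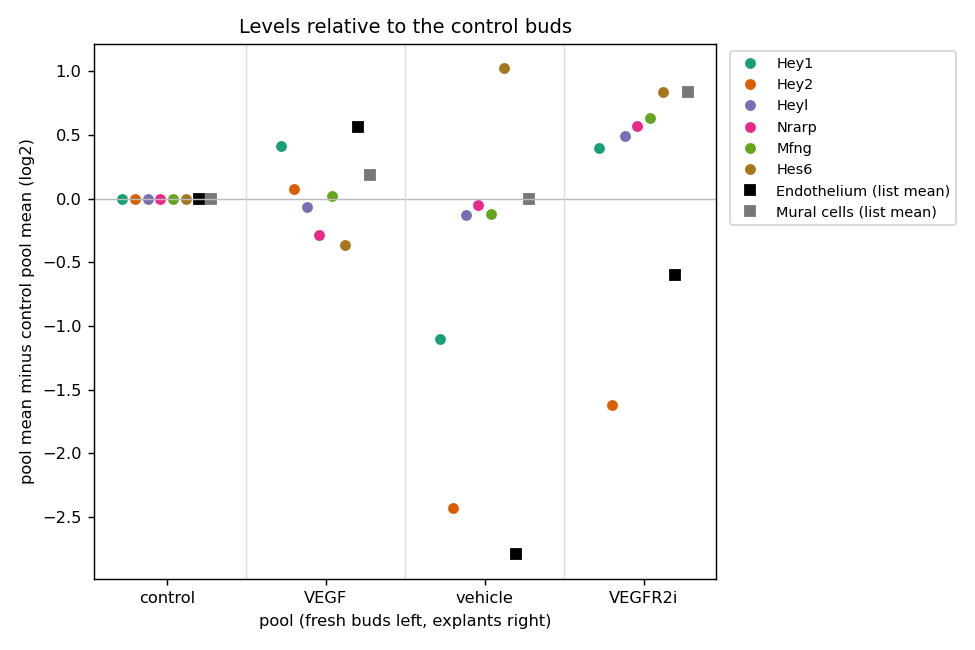
Pool mean minus control pool mean (log2, as deposited, not rescaled between buds and explants) for 6 members (circles) and the mean of the endothelial and mural cell lists (squares); the control pool is 0 by construction. Hey2 and the endothelial list are far below 0 in vehicle (-2.43 and -2.79), whereas Hes6 is above 0 in both explant pools. The mural mean near 0 in vehicle (-0.01) averages over 3 genes called higher and 5 called lower than control, with a list median of -1.08.

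For the 5 genes called between the explants, the genes of most similar profile were sought among 674 other genes past the size rule in either comparison, by Pearson's r over the 8 arrays after centring each set of 4 arrays on its mean. For Hey1 they were Glipr2 (r = 0.997), Icam2 (0.995), an adhesion molecule of endothelium and leukocytes, and Jcad (0.995), a protein of endothelial junctions. For Hey2 they were N4bp3 (0.996), Mapk11 (0.986) and Hoxb5 (0.984). For Heyl they were Lhfp (0.990), Vwf (0.988), the clotting factor stored by endothelium, and Apobec1 (0.987). For Nrarp they were Lratd1 (0.991), Kcnn3 (0.984) and Nrn1 (0.980). All 3 were lower in the VEGF pool (-0.38, -0.30 and -0.21) and higher in the pool labelled VEGFR2i. Sharing these signs with Nrarp follows from how the 3 were chosen. For Mfng they were Cspg4 (0.993), a gene of pericytes, Msr1 (0.993), a macrophage scavenger receptor, and Pdzd2 (0.991). Such values over 8 arrays rest on 4 pools and are driven by the explant difference, so they describe these pools only.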

How the data were processed

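RNA of 4 pools was hybridized to 2 arrays each, giving 8 arrays grouped by their labels. The deposited values are log2 expression of 35399 probe sets, which the authors normalized with RMA; the design text names Partek Genomic Suite 6.5 as the software. Values from 2.415 to 13.57 fit that scale. RMA compresses differences of dim genes and can mask a shift common to most genes. Probe sets with exactly 1 symbol in the platform annotation (21789) gave 19938 genes, each by its brightest probe set; 1621 had several symbols and 11989 none.

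Pool means were compared by the size rule, and its code was checked on simulated data. The design text names a t-test for gene selection; it and limma 3.58.1 (R 4.3.3) were run on the arrays as alternatives, where a p-value measures hybridization error only. The text names all 10 members, Cdh5, Pecam1, Kdr and Neurog3 where used, up to 4 genes past the size rule per list and comparison, and the 3 likest genes per called member. Dll1, Notch1, Notch2, Notch3, Pdx1 and Ptf1a, and the relatives of Hes below, fall outside that rule. The members, lists and rules were chosen with earlier results of these data known. Precision is limited by 2 arrays per pool. The labels call the embryos of the bud pools littermates without giving the number of litters. Pool levels relative to control were also recomputed after rescaling, an alternative chosen after seeing the data.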

Additional observations from a re-analysis of the deposited data

How the results depend on the processing

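Between the VEGF and control pools, 0 members were called under every setting tried except a fold threshold below 1.5. There 2 were called (Hey1 higher, Hes6 lower), beside 2.4% of all genes called higher and 2.76% lower. Between the explants, 5 members were called as reported and 1 at 2-fold, beside 0.617% of all genes called higher at 2-fold. When single arrays were left out, 3 to 5 were called, with Heyl and Nrarp lost as given above. Beside them, 1.74% to 2% of all genes were called higher. The methods' t-test on the arrays called 5 at 1.5-fold without adjustment, beside 1.69% of all genes called higher. After Benjamini-Hochberg adjustment it called 0 members, but also only 0 higher and 1 lower of all 19938 genes. Its 0 therefore does not bear on the members in particular. Limma called 5, beside 1.82% of all genes called higher. Leaving out dim genes removed Hey2 and left 4, beside 2.76% of the genes kept called higher. Median centring and quantile normalization called the same 5 genes, beside 1.91% and 1.73% of all genes called higher. No called difference changed sign. Between vehicle and control the calls numbered 4, and 3 to 5 under the alternatives. Taking the mean over a gene's probe sets changed no member, since each has 1. Dim values, such as Hey2 in vehicle, limit what a difference can show.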

Other observations

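Of 6 relatives of the Hes and Hey repressors outside the 10 genes, none was called in either comparison of a treated pool with its own control. Bhlhe40, a repressor that responds to hypoxia and the circadian clock, had the largest difference of them in both, with 0.24 for VEGF over control and 0.32 for the pool labelled VEGFR2i over vehicle. It lay at 4.91 in vehicle against 3.64 in control, a difference of 1.27, and Bhlhe41, its close relative, at 3.71 against 3.00. Hes7, the oscillating repressor of somite formation, stayed between 5.25 and 5.30 in all 4 pools on the deposited scale. Levels of Bhlhe40, Bhlhe41 and Hes7 were not recomputed after rescaling between buds and explants.

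Hes1, Heyl and Nrarp were lower in the VEGF pool than in control and higher in the pool labelled VEGFR2i than in vehicle. This held on every pair of arrays in each case, although the Heyl difference between the bud pools was only -0.06. Over all genes, arrays did not overlap for 45.3% between the bud pools and for 51.0% between the explants. The share of all genes with such opposite signs was not counted, so the pattern is not shown to be particular to these members. The bud and explant comparisons are different contrasts of separate pools, and the difference between them was not tested. Endothelial values of the explants go against the labels, so no effect of the inhibitor is read here.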
